A study of Mus musculus with 20 samples.

Results

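The genes described here are 10 members of the branched-chain amino acid catabolic pathway, measured by RNA sequencing in the apex of the mouse heart: Bcat2, Bckdha, Bckdhb, Dbt, Bckdk, Ppm1k, Ivd, Mccc1, Mccc2 and Hibch. They were taken by gene name from a table of 25308 genes, each matched 1 row, all 10 were above 0 in all 20 mice, and all 10 passed the filter on low counts that 14477 genes passed. The 10 were chosen by their measured levels in these same mice, with the differences between AL, LS and Ctrl in view, so those differences are a description: they carry no p-value here, and a call among the 10 in the fit over all genes is counted beside the share of all genes called and supports nothing by itself. The study compared 9 AL mice, 4 LS mice and 7 Ctrl mice, adults of both sexes. AL mice were λS-DH animals with amyloid deposits in the heart, which had been injected intravenously with fibrils or soluble protein made of the variable part of a human amyloidogenic light chain. LS mice were λS-DH animals that were not induced and had no deposits. Ctrl mice were DH animals without the human gene. All 3 groups shared DH-LMP2A, a genotype whose plasma cells make no immunoglobulin heavy chain. In λS-DH mice the cDNA of the λS light chain stood at the mouse Igκ locus under a mouse VH promoter and was made by plasma cells, not by the heart. The knock-in came from 129-type embryonic stem cells, the single injected AL mice were not told apart by protocol in the labels, and the labels gave no age for single mice.

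Leucine, isoleucine and valine are broken down in mitochondria by a shared beginning and 3 separate ends. The mitochondrial aminotransferase encoded by Bcat2 removes the amino group. The branched-chain ketoacid dehydrogenase complex then makes the irreversible step: Bckdha and Bckdhb encode the subunits of its E1 decarboxylase and Dbt its E2 core. The kinase Bckdk phosphorylates E1 and shuts the complex down, and the phosphatase Ppm1k removes the phosphate and opens it. Ivd, Mccc1 and Mccc2 act on the leucine branch, and Hibch on the valine branch. The heart expresses this pathway, and its lowered expression is a known feature of failing hearts.

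Libraries from run 1 (AL1 to AL7, all LS mice, Ctrl1 to Ctrl4) held between 43993277 and 62668146 estimated read counts, and those from run 2 (AL8, AL9, Ctrl5 to Ctrl7) between 7867642 and 11794615. Values are CPM (read counts scaled to a common library size) after TMM scaling, and 3 counts correspond to between 0.0479 and 0.381 CPM. All 12 cardiomyocyte markers of the labelled tissue were present, at a summed level of 59300 to 94400 CPM in AL, 80700 to 90800 CPM in LS and 76900 to 97400 CPM in Ctrl. RNA of liver genes stood out in 5 libraries (LS1, LS3, Ctrl1, Ctrl3 and Ctrl4), which held 93.4 to 215 CPM of albumin (Alb), against at most 21.7 CPM in the other mice. All 16 hepatocyte markers were lower in AL than in Ctrl, with a summed level of 3.44 to 45.8 CPM in AL, 9.61 to 227 CPM in LS and 3.05 to 347 CPM in Ctrl, and none was at 0 in every mouse of a group. Of the 12 cardiomyocyte markers 3 were called as lower in AL against Ctrl and 5 against LS, with Myh6, Atp2a2 and Pln in both. Of the 6 endothelial markers only Egfl7 was called, as higher against both groups, while Tek (-0.19) and Cdh5 (-0.06) were the ones below 0 against Ctrl. Of the 8 macrophage markers only Lyz2 (FDR 0.034) and C1qb (FDR 0.0402) were called, as higher against Ctrl. Csf1r and Mrc1 (both -0.15) were the macrophage markers below 0 there. Of the 6 skeletal muscle markers, Tnnt3 was higher against both groups (FDR 0.0449 and 0.0418), at up to 0.904 CPM in AL. Acta1 was higher against LS (FDR 0.0412). The 7 fibroblast markers, none of them called, summed to 404 to 4590 CPM in AL, with AL9 highest, to 1170 to 1280 CPM in LS and to 551 to 1310 CPM in Ctrl. The 8 adipocyte markers summed to 0.593 to 96.4 CPM in AL, with AL1 highest, to 2.19 to 12.7 CPM in LS and to 0.797 to 30 CPM in Ctrl. Of those tested, only Adipoq was called, as higher in AL against LS (log2 fold change 3.33, FDR 0.0437). In bulk tissue, fewer cells of a type and less RNA per cell cannot be told apart.

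The sequences before the start sites are shown for 5 genes, namely the leucine-branch enzymes that were lower together in AL hearts (Ivd, Mccc1, Mccc2) and the genes that stood apart from the others (Bcat2 and Ppm1k). Each line gives the 250 bases before the RefSeq start on the gene's own strand, in GRCm38.p6, and 9 of the 10 genes were found in the RefSeq promoter table. Dbt was not matched. Capitals mark every match, on either strand, to the GC box GGGCGG, the CCAAT box CCAAT, the E-box CACGTG and the nuclear receptor motif AAGGTCA.
Ivd, chr2:118861744-118861993, plus strand: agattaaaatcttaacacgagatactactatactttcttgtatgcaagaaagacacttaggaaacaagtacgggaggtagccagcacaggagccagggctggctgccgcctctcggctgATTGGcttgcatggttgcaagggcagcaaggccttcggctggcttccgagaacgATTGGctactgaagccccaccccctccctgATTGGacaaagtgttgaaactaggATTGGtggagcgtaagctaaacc
Mccc1, chr3:36000679-36000928, minus strand: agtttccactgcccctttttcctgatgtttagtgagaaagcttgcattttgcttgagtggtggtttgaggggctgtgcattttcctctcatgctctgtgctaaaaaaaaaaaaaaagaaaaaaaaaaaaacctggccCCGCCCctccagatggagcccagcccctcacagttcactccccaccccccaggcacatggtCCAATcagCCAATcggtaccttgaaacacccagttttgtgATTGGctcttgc
Mccc2, chr13:100015640-100015889, minus strand: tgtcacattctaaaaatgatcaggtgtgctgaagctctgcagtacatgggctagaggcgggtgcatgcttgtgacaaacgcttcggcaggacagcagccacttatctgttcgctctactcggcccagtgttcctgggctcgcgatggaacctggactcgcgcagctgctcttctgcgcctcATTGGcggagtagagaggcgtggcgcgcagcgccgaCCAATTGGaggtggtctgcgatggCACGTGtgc
Bcat2, chr7:45569903-45570152, plus strand: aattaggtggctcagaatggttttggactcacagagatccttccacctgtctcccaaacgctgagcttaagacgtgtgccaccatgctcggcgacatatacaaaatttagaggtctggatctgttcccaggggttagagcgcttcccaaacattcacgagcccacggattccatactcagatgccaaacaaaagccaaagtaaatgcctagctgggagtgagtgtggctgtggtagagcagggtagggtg
Ppm1k, chr6:57535488-57535737, minus strand: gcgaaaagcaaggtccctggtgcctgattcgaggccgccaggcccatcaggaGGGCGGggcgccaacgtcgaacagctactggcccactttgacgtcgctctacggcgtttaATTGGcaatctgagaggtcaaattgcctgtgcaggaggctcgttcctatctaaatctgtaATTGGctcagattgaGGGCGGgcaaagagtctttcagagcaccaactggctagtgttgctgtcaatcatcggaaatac

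The window before Ivd held 4 CCAAT boxes and those before Mccc1 and Mccc2 held 3 each, where matches in Mccc2 overlapped. Ppm1k held 2 CCAAT boxes and 2 GC boxes, and the Bcat2 window held none of the 4 motifs. Of the 9 genes searched, 6 had a CCAAT box, 4 a GC box, 1 an E-box and 0 AAGGTCA. Among 32851 windows of the same length in the table, 33.8% held a CCAAT box, 32.7% a GC box, 6.02% an E-box and 4.08% AAGGTCA. The motif found in 6 of the 9 genes was absent before Bckdha and Hibch, which were lower in AL than in Ctrl. It was present before Bckdhb (2 matches) and Bckdk (1 match), which were not called. The windows printed above were picked by the levels of their genes, and a link between motifs and levels was not tested. A match describes letters and not a bound factor.

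In AL hearts Bckdha, Dbt, Ivd, Mccc1 and Mccc2 were lower than in both other groups, whereas Bcat2, the first enzyme of the pathway, was higher. Against Ctrl, 6 of the 10 genes were lower and 1 was higher at a false discovery rate (FDR) under 0.05 in edgeR's quasi-likelihood test, where 26.2% of all genes were called, 15.4% as lower and 10.7% as higher. Against LS, 6 were again lower and 1 higher, where 23.4% of all genes were called, 13.6% as lower and 9.78% as higher. These comparisons share the AL mice. The study's own rule added an absolute log2 fold change of at least 0.58, which 2 of the 10 genes met against Ctrl (Dbt and Ivd, where 7.81% of all genes did), 3 against LS (Bcat2, Ppm1k and Ivd, where 8.9% did) and 0 between LS and Ctrl. Every AL mouse was below every Ctrl mouse for 1 of the 10 genes, where 1.51% of all genes showed this, and below every LS mouse for 3, where 8.25% did. The median log2 fold change of the 10 genes was -0.32 against Ctrl and -0.35 against LS, beside 0.01 over all genes tested in both. Between LS and Ctrl, edgeR called 0 of the 10 genes, where it called 0.0207% of all genes. In edgeR 1 gene had an unadjusted p under 0.05 and DESeq2 called 1, Ppm1k in both cases. The shares of all genes by these other measures are not given here.

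**Figure D1:**
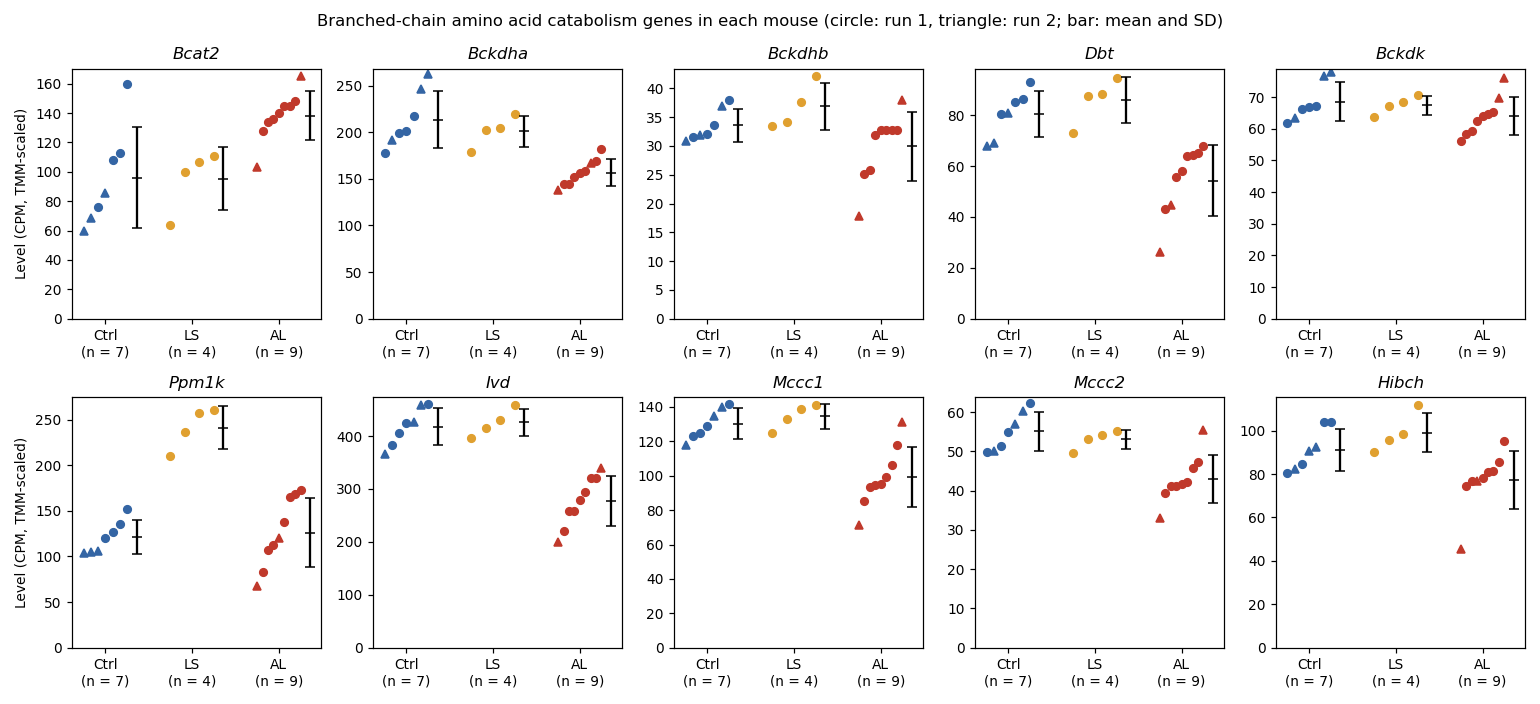
Level of each of the 10 genes in each mouse, in TMM-scaled CPM on axes that start at 0, for Ctrl (blue), LS (orange) and AL (red). Circles are mice of run 1, triangles mice of run 2, and the bar beside each group is the mean with its SD. Every AL mouse lies below every other mouse for Ivd, LS mice lie above all others for Ppm1k, and AL mice lie mostly above the others for Bcat2.

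Bcat2 (chr7:45570153-45589711, plus strand, GRCm38), the mitochondrial aminotransferase, was the only one of the 10 genes that was higher in AL. AL mice ranged from 103 to 165 CPM with a median of 140, and Ctrl mice from 59.4 to 160 CPM with a median of 85.7. The LS mice stood at 107, 63.8, 111 and 100 CPM. AL and Ctrl overlapped, with the lowest AL mouse, AL9, below Ctrl1, Ctrl2 and Ctrl3, and 8 of 9 AL mice were above all LS mice. The log2 fold change was 0.48 (SE 0.155) against Ctrl and 0.62 (SE 0.191) against LS. Without AL8 it was 0.34 (SE 0.143) against Ctrl and the call was lost, as it was without Ctrl4, Ctrl5 or Ctrl6 (0.40 to 0.45). The call against LS was lost without LS2 (0.46, SE 0.191) or without LS4 (0.64, SE 0.217). Scaled per kilobase of exon, the level of Bcat2 was 0.429 ± 0.0361 of the level of Bckdha in AL (SD, n = 9), 0.234 ± 0.0614 in LS (n = 4) and 0.228 ± 0.108 in Ctrl (n = 7).

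Of the subunits of the dehydrogenase complex, Bckdha and Dbt were lower in AL hearts and Bckdhb did not pass the threshold. Bckdha (chr7:25629946-25658981, minus strand) ranged from 138 to 182 CPM in AL with a median of 156, and from 178 to 262 CPM in Ctrl with a median of 201. In LS it was 219, 204, 179 and 202 CPM. In 8 of 9 AL mice Bckdha was below every LS and Ctrl mouse, and its log2 fold change was -0.42 (SE 0.0804) against Ctrl and -0.38 (SE 0.0931) against LS. Dbt (chr3:116513070-116549981, plus strand), the E2 core, had the lowest log2 fold change against Ctrl of the 10 genes. It ranged from 26.1 to 68.1 CPM in AL with a median of 58.1, and from 68.0 to 93.1 CPM in Ctrl with a median of 80.8. In LS it was 73.1, 94.5, 87.5 and 88.3 CPM, above every AL mouse. The log2 fold change of Dbt was -0.69 (SE 0.118) against Ctrl, which is a level of 0.621 of Ctrl, and -0.58 (SE 0.134) against LS. Bckdhb (chr9:83925145-84124240, plus strand) was called in no comparison. Its levels were 17.8 to 38.0 CPM in AL (median 32.7), 30.8 to 37.9 CPM in Ctrl (median 32) and 33.4, 42.2, 34.1 and 37.7 CPM in LS, so that the AL and Ctrl mice overlapped widely. Its log2 fold change was -0.18 (SE 0.115) against Ctrl and -0.28 (SE 0.133) against LS.

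The kinase and the phosphatase of the complex followed different patterns. Bckdk (chr7:127904082-127910221, plus strand), the kinase that switches the complex off, had the smallest SEs of the 10 genes. It stood at 56.2 to 76.0 CPM in AL (median 63.9), at 61.7 to 77.9 CPM in Ctrl (median 67.0) and at 70.7, 67.1, 63.6 and 68.3 CPM in LS. Its log2 fold changes were -0.06 (SE 0.0528) against Ctrl and -0.12 (SE 0.0623) against LS, and neither passed the threshold. Ppm1k (chr6:57506502-57535468, minus strand), the phosphatase that switches the complex on, set the LS mice apart from both other groups. The LS mice stood at 210, 261, 237 and 257 CPM. Ctrl mice ranged from 104 to 152 CPM with a median of 120, and AL mice from 67.5 to 173 CPM with a median of 120. Every LS mouse was above every AL and every Ctrl mouse, and AL and Ctrl mice overlapped. The share of all genes with every LS mouse above every Ctrl mouse was 1.87%. The log2 fold change of Ppm1k was 0.81 (SE 0.185) for LS against Ctrl, which did not pass the threshold, -0.85 (SE 0.165) for AL against LS, which passed it, and -0.04 (SE 0.144) for AL against Ctrl. These 3 values share groups and are not independent of each other. DESeq2, and a fit of the LS and Ctrl mice alone, each put the LS against Ctrl difference past the threshold. The shares of all genes past it in those fits are not given here.

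**Figure D2:**
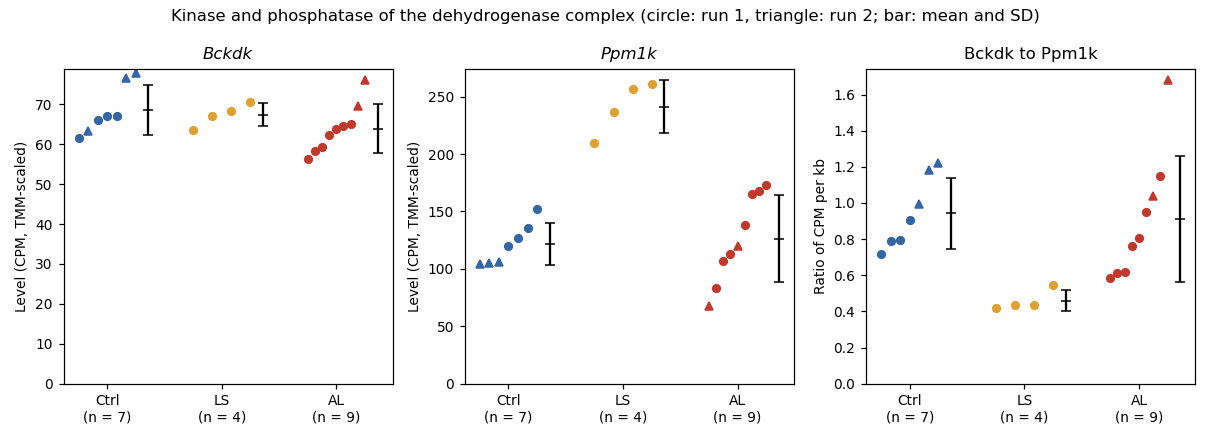
Level of Bckdk and Ppm1k in each mouse (TMM-scaled CPM) and the ratio of Bckdk to Ppm1k within each mouse, with both levels scaled per kilobase of exon. Circles are mice of run 1, triangles mice of run 2, and bars are the mean and SD. The ratio in the 4 LS mice, 0.419 to 0.548, lies below that of every AL and Ctrl mouse, while Bckdk itself overlaps in the 3 groups.

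Within a mouse, the kinase to phosphatase ratio put these patterns together. Per kilobase of exon, the ratio of Bckdk to Ppm1k was 0.460 ± 0.0594 in LS (SD, n = 4), 0.912 ± 0.350 in AL (n = 9) and 0.943 ± 0.197 in Ctrl (n = 7). The LS mice had ratios of 0.548, 0.419, 0.438 and 0.434. All LS mice were of run 1, where AL mice had 0.587 to 1.15 and Ctrl mice 0.718 to 0.908. In run 2 AL mice had 1.04 and 1.68 and Ctrl mice 0.992 to 1.22, which raised the pooled means. The lowest AL mouse had 0.587 and the lowest Ctrl mouse 0.718, so LS overlapped with neither group. No share over other pairs of genes is given here for such a separation. The highest ratio, 1.68, was that of AL9, which also had the lowest Ppm1k.

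The human light chain gene stood on the same chromosome as Ppm1k, in AL and LS mice alike and not in Ctrl mice. In GRCm38 Ppm1k ends 13.2 Mb before the mouse Igkc gene, the constant part of the Igκ locus. Only 5 genes tested, Ppm1k among them, lay within 500 kb. Of the 5, 3 were called between AL and Ctrl, 3 between AL and LS and 1 between LS and Ctrl. The shares of all genes tested were 26.2%, 23.4% and 0.0207%. Among the 5, Pyurf, 151 kb away, was at 12.9 to 19.2 CPM in AL, 14.1 to 15.5 CPM in LS and 33.5 to 41.4 CPM in Ctrl. Pyurf was lower than in Ctrl in both λS-DH groups, with a log2 fold change of -1.26 (SE 0.0772, FDR 1.39e-08) in AL and -1.36 (SE 0.103, FDR 6.46e-07) in LS, where Ppm1k was high in LS and not in AL. The light chain and the targeted chromosome that came with it cannot be told apart between LS and Ctrl.

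The leucine branch was lower in AL at each of its members measured here. Ivd (chr2:118861954-118882909, plus strand), isovaleryl-CoA dehydrogenase, was the only one of the 10 genes in which every AL mouse was below every other mouse, where 1.21% of all genes showed this. AL mice ranged from 199 to 340 CPM with a median of 279, and Ctrl mice from 367 to 460 CPM with a median of 425. The LS mice stood at 397, 459, 431 and 416 CPM. The log2 fold change of Ivd was -0.60 (SE 0.0987) against Ctrl and -0.62 (SE 0.115) against LS, a level of 0.66 of Ctrl.

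Mccc1 (chr3:35959312-36000678, minus strand) and Mccc2 (chr13:99948530-100015639, minus strand) encode the subunits of methylcrotonyl-CoA carboxylase, the biotin enzyme after Ivd. Mccc1 ranged from 71.4 to 131 CPM in AL (median 95.3) and from 118 to 142 CPM in Ctrl (median 129), with 125, 141, 133 and 139 CPM in LS. Mccc2 ranged from 33.0 to 55.4 CPM in AL (median 41.6) and from 49.9 to 62.3 CPM in Ctrl (median 55), with 49.5, 55.2, 53.3 and 54.3 CPM in LS. In both genes 8 of 9 AL mice were below every LS and Ctrl mouse, and AL8 was the exception. The log2 fold changes were -0.39 (SE 0.0951) against Ctrl and -0.44 (SE 0.111) against LS for Mccc1. For Mccc2 they were -0.35 (SE 0.0832) and -0.31 (SE 0.0973), and the call against LS was lost without LS2 (-0.30), LS3 (-0.31) or LS4 (-0.31). The paired subunits had a ratio of Mccc1 to Mccc2, per kilobase of exon, of 0.589 ± 0.0342 in AL (SD, n = 9), 0.647 ± 0.00811 in LS (n = 4) and 0.606 ± 0.0406 in Ctrl (n = 7). This ratio ranged from 0.529 to 0.636 in AL, from 0.636 to 0.654 in LS and from 0.529 to 0.661 in Ctrl.

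Hibch (chr1:52844929-52920986, plus strand), the hydrolase that frees the valine intermediate from coenzyme A, was lower in AL by less. It ranged from 45.4 to 95.2 CPM in AL (median 78.2) and from 80.4 to 104 CPM in Ctrl (median 90.5), with 90.4, 95.7, 98.6 and 112 CPM in LS. Its log2 fold change was -0.30 (SE 0.101) against Ctrl, past the threshold, and -0.32 (SE 0.116) against LS, short of it. AL9 was far below the other AL mice, and without it the log2 fold change against Ctrl was -0.18 (SE 0.0754) and not called. The call was also lost without AL1, AL3, AL4, Ctrl3, Ctrl4, Ctrl6 or Ctrl7, at -0.28 to -0.30.

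On a score over the 10 genes the AL mice spread more widely than the LS mice, and AL8 and AL9 marked the ends of the AL group. As a mean z score over the 10 genes, centred within run, AL9 was lowest of the 20 mice at -1.90 and AL8 was the only AL mouse above 0, at 0.455. Bcat2 entered this score with the same sign as the other genes, so a higher Bcat2 raised it. AL8 had the highest Bcat2 of the AL mice, 165 CPM. The other AL mice ran from -0.977 to -0.0507. LS mice ran from 0.468 to 0.802 and Ctrl mice from -0.0945 to 0.982. AL8 also had the highest summed cardiomyocyte markers of the AL mice, 94400 CPM, but AL9 was not lowest on that sum, with 73900 CPM. The sum was not centred within run. Ctrl mice stood at 76900 to 85700 CPM in run 1 and at 89100 to 97400 CPM in run 2.

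The counts of calls moved with the setting more than the fold changes did, except under the cardiomyocyte covariate. With the mean level of the cardiomyocyte markers as a covariate, 3 genes were called against Ctrl (Bckdha, Dbt and Ivd) and 0 against LS, with medians of -0.17 and -0.08, where 12.2% and 1.54% of all genes were called. Without the 5 libraries with albumin above 50 CPM, 2 genes were called against Ctrl (Dbt and Ivd) and 2 against LS (Ivd and Ppm1k), where 6.63% and 5.23% of all genes were called, and the medians were -0.29 and -0.38. With the hepatocyte markers as a covariate in all 20 mice, 6 and 7 genes were called, with medians of -0.38 and -0.43, where 18.2% and 18.7% of all genes were called. With ComBat-seq in place of the run term, 2 were called against Ctrl (Dbt and Ivd) and 1 against LS (Ppm1k), with medians of -0.33 and -0.39, where 5.35% and 4.42% of all genes were called. The part of cardiomyocyte content and of depth in the differences was not tested.

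The rest of the pathway was described by 30 other genes, all of which passed the filter and none of which was among the 10. Against Ctrl, 9 of the 30 fell in AL and 0 rose at FDR under 0.05, and against LS 11 fell and 0 rose. Of all genes tested, 15.4% were called as lower against Ctrl and 13.6% against LS, and 10.7% and 9.78% as higher. The median log2 fold change of the 30 was -0.13 and -0.21. Between LS and Ctrl edgeR called 0 of them, as did DESeq2, and 0 had an unadjusted p under 0.05. The genes that fell were led by the propionyl-CoA route, in which the ends of isoleucine and valine become succinyl-CoA: 4 of its 6 genes fell against both groups.

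Mmut, methylmalonyl-CoA mutase, fell most among the 30. It ranged from 60.7 to 112 CPM in AL (median 97.7) and from 124 to 198 CPM in Ctrl (median 136), with 151, 164, 184 and 173 CPM in LS. No AL mouse reached the level of any other mouse. The log2 fold change of Mmut was -0.82 (SE 0.101, FDR 9.51e-05) against Ctrl and -0.83 (SE 0.116, FDR 0.000399) against LS. The call held in both comparisons with the cardiomyocyte covariate, without the albumin-rich libraries and with ComBat-seq.

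The other genes of the propionyl-CoA route that fell were Pcca, Pccb and Mmab. Pcca and Pccb encode the subunits of propionyl-CoA carboxylase, and Mmab makes the cobalamin cofactor of the mutase. Pcca ranged from 45.2 to 75.0 CPM in AL and from 78.3 to 99.2 CPM in Ctrl, and no AL mouse overlapped with either other group. Against Ctrl the log2 fold change was -0.54 for Pcca (FDR 0.000447), -0.40 for Pccb (FDR 0.000794) and -0.65 for Mmab (FDR 0.000515). Against LS it was -0.54 for Pcca (FDR 0.00156), -0.45 for Pccb (FDR 0.00124) and -0.48 for Mmab (FDR 0.0113). Mcee and Mmaa, the epimerase and a cobalamin chaperone of the same route, had log2 fold changes of -0.08 and 0.04 against Ctrl.

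On the isoleucine and valine branches, 2 of 6 genes fell against Ctrl and 3 of 6 against LS, where 15.4% and 13.6% of all genes did. Aldh6a1, the dehydrogenase that ends the valine branch, ranged from 128 to 240 CPM in AL and from 244 to 325 CPM in Ctrl, without overlap, and its log2 fold change was -0.53 (FDR 0.000963) against Ctrl and -0.60 (FDR 0.00144) against LS. Acadsb, the short branched-chain acyl-CoA dehydrogenase of isoleucine, had -0.44 (FDR 0.000714) and -0.58 (FDR 0.000537). Hsd17b10, of the same branch, fell against LS alone, by 0.36 on the log2 scale (FDR 0.0231), and had -0.20 against Ctrl. Without LS2 the value of Hsd17b10 against LS was -0.32 (FDR 0.0812).

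Outside these branches the genes that fell serve several pathways. Acat1, the thiolase shared by isoleucine and ketone metabolism, had a log2 fold change of -0.37 against Ctrl (FDR 0.00775) and -0.36 against LS (FDR 0.0234), where the latter was not called without LS1 (-0.36, FDR 0.0547) or LS4 (-0.31, FDR 0.0944). Dld, the E3 subunit that the complex shares with pyruvate dehydrogenase, had -0.39 (FDR 0.00738) and -0.47 (FDR 0.00647). Hlcs, which attaches biotin to carboxylases, had -0.54 (FDR 0.00308) and -0.49 (FDR 0.0142). Lias, which makes lipoate, fell against LS with -0.22 (FDR 0.0216) and was not called without LS2 (-0.20, FDR 0.0872) or LS4 (-0.23, FDR 0.0516). None of the 6 amino acid carriers passed the threshold in any comparison. Klf15, a transcription factor known to drive this pathway in heart, had -0.30 (SE 0.132, FDR 0.0961) against Ctrl.

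**Figure D3:**
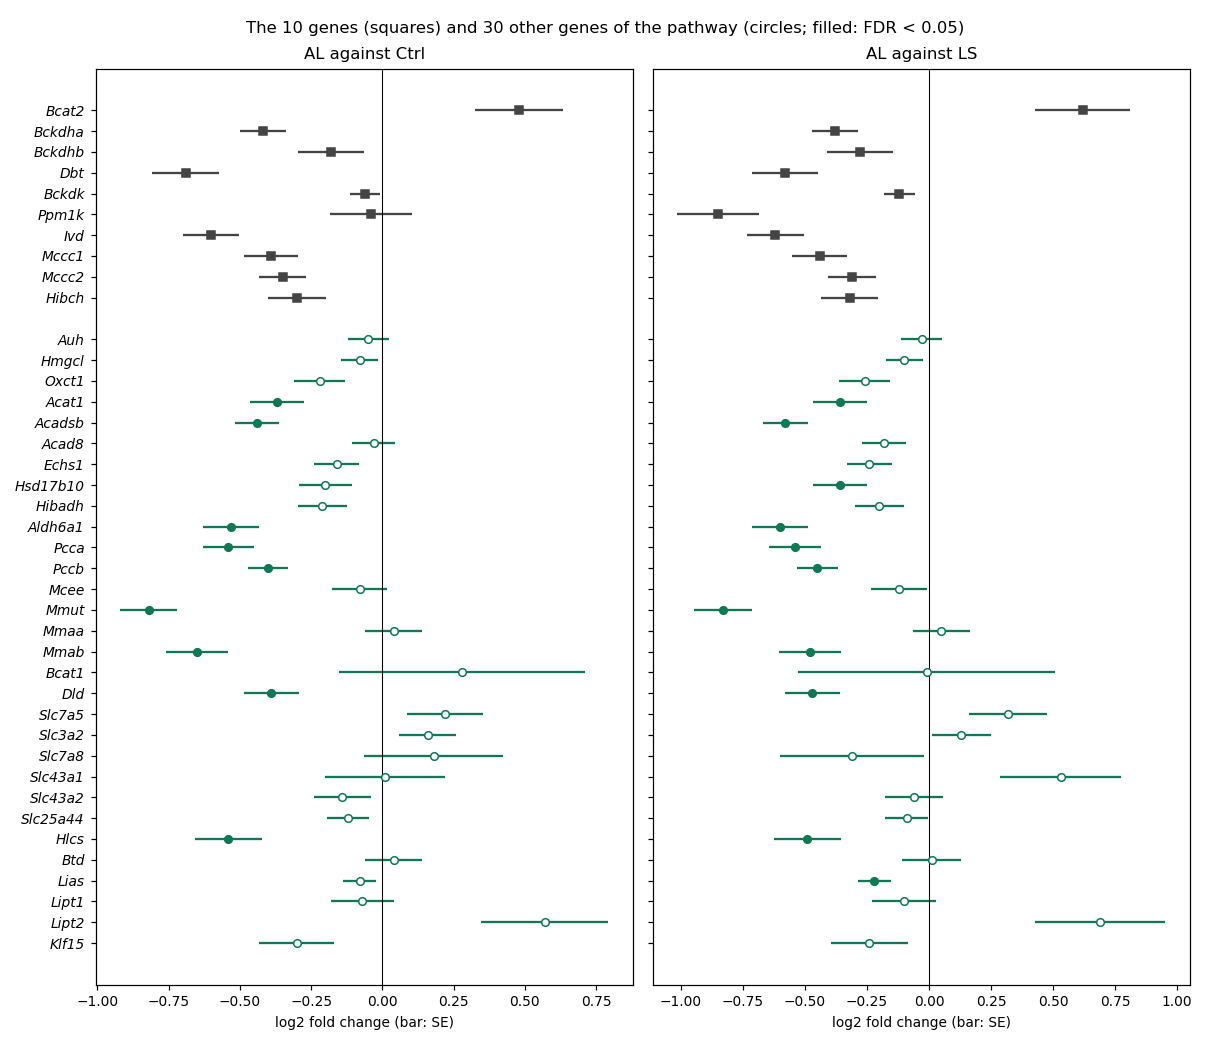
Log2 fold change with its SE of the 10 genes (squares) and of the 30 other genes of the pathway (circles, filled where the FDR is under 0.05), for AL against Ctrl and AL against LS. Bcat2 lies to the right of 0 in both panels, and Mmut is the lowest of the circles, at -0.82 and -0.83.

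Counts of the 30 genes also depended on the setting. Without the albumin-rich libraries 3 were called against Ctrl (Aldh6a1, Mmab and Mmut) and 5 against LS, with ComBat-seq 2 (Mmab and Mmut) and 1 (Mmut), and with the cardiomyocyte covariate 8 were called against Ctrl and 1 against LS (Mmut). With the hepatocyte covariate 10 were called in each comparison. The shares of all genes called under these settings are those given above beside the 10 genes.

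Lower expression in AL hearts was not limited to branched-chain amino acids. Of 13 genes of pyruvate oxidation 4 were called as lower and 1 as higher against Ctrl, of 17 genes of the TCA cycle 7 were lower and 0 higher, and of 17 genes of fatty acid oxidation 6 were lower and 0 higher. Over all genes tested, 15.4% were called as lower against Ctrl and 10.7% as higher. Against LS the counts were 3, 8 and 5 lower, and 0 higher in each, where 13.6% of all genes were lower and 9.78% higher. The medians against Ctrl were -0.18, -0.19 and -0.20, and against LS -0.21, -0.23 and -0.18. Within pyruvate oxidation the values ran from -1.01 for Pdpr, a regulator of the pyruvate dehydrogenase phosphatase, to 0.66 for Pdk3, a kinase of the complex. Within the TCA cycle they ran from -0.47 for Sucla2 to 0.06 for Suclg1, both subunits of succinyl-CoA ligase. Within fatty acid oxidation they ran from -0.50 for Hadha, of the trifunctional protein, to -0.02 for Etfb, of the electron transfer flavoprotein. Whether the 10 genes differed from these lists was not tested, since the 10 were chosen for their values.

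**Figure D4:**
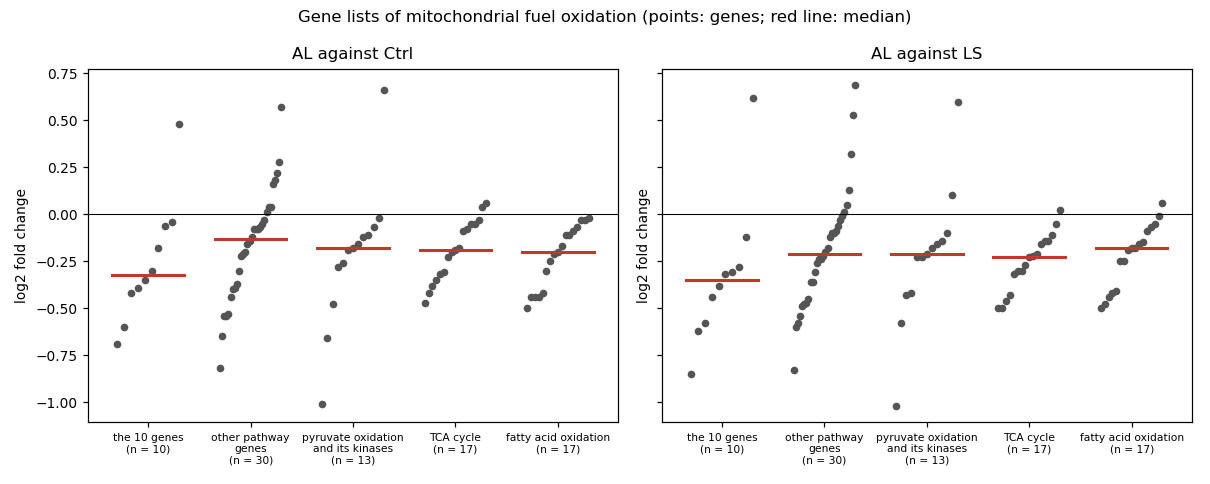
Log2 fold change of each gene in 5 lists, for AL against Ctrl and AL against LS, with a red line at the median of each list. The median of the 10 genes is -0.32 and -0.35, and each other list has most of its points below 0.

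The 7 genes called against Ctrl had the same direction in each run. They were called on both runs together, so this is a description and not a separate check. In run 1 alone (7 AL, 4 Ctrl) the log2 fold change was 0.29 (SE 0.166) for Bcat2, -0.33 (SE 0.0736) for Bckdha, -0.53 (SE 0.108) for Dbt and -0.58 (SE 0.0954) for Ivd. In run 2 alone (2 AL, 3 Ctrl) it was 0.96 (SE 0.245) for Bcat2, -0.56 (SE 0.2) for Bckdha, -0.99 (SE 0.241) for Dbt and -0.58 (SE 0.254) for Ivd. Of the 10 genes 0 were called in this small run, and the share of all genes called there is not given here. Mccc1 had -0.39 and -0.33, Mccc2 -0.35 and -0.30, and Hibch -0.19 and -0.49. A test of the difference between runs called 0 of the 10 genes in edgeR, with 1 gene at an unadjusted p under 0.05 (Dbt, a difference of -0.51, SE 0.233) and a lowest FDR of 0.267, where 1.49% of all genes were called. For Bcat2 the Ctrl mice of run 1 stood at 76.3 to 160 CPM and those of run 2 at 59.4 to 85.7 CPM. LS mice were sequenced in run 1 only, where Ppm1k had a log2 fold change of 0.84 (SE 0.197) against Ctrl.

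**Figure D5:**
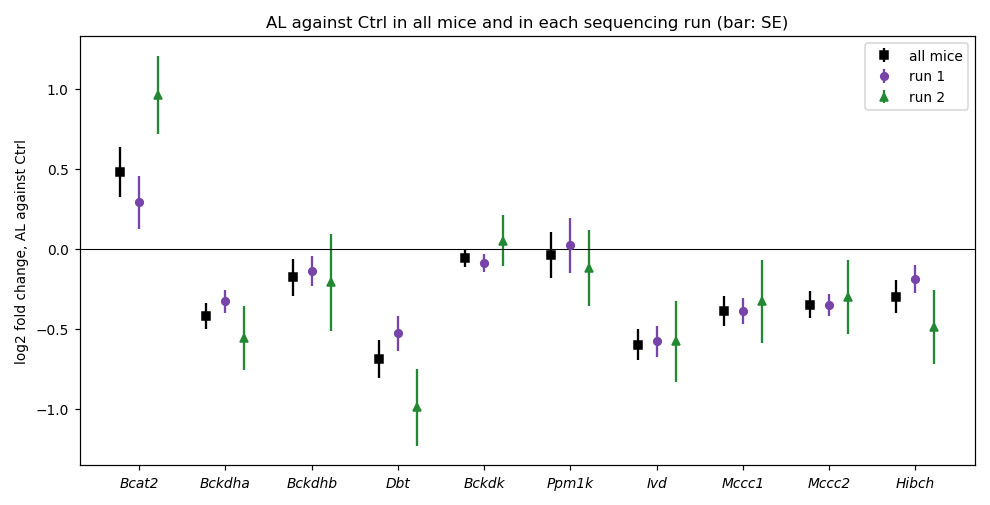
Log2 fold change of AL against Ctrl with its SE for each of the 10 genes, in all mice (squares), in run 1 alone (circles, 7 AL and 4 Ctrl mice) and in run 2 alone (triangles, 2 AL and 3 Ctrl mice). Bars are widest in run 2, and the genes with a call in all mice lie on the same side of 0 in both runs.

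Across the 20 mice the enzymes moved together and Bcat2 did not follow them. On run-centred log2 CPM, the 21 pairs among the 7 enzyme genes other than Bcat2 (Bckdha, Bckdhb, Dbt, Ivd, Mccc1, Mccc2 and Hibch) had correlations of 0.661 to 0.960 with a median of 0.816. Bcat2 had -0.590 to -0.174 with the 9 others, and Ppm1k 0.365 to 0.695 with the 8 genes other than Bcat2. These are descriptions over 20 libraries that also share group, depth and the content of heart muscle. Among the genes most like the mean z score of the 10 were Dglucy (r = 0.97), Atp5a1 under 2 identifiers (0.968 and 0.966), the citrate synthase gene Cs (0.966), Epm2a (0.965), Vdac1 (0.962), Fundc2 (0.962), Idh3b (0.956) and Trdmt1 (0.956).

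The genes that moved most closely with Bcat2 included several of its own chromosome, a feature singled out after its values were seen. Among the 20 genes with the largest absolute correlation with Bcat2, 9 lay on chromosome 7, which holds 7.63% of the genes tested, and 5 lay within 10 Mb, where 0.988% lie: Zfp473 (r = 0.919), Pop4 (0.907), Ftl1 (-0.889), Slc6a16 (0.878) and Slc17a7 (0.841). Ftl1 has near-identical copies, of which Ftl1-ps1 and Ftl2-ps were also among the 20, so its counts are uncertain. Of 47 genes tested within 500 kb of Bcat2, counting Bcat2, 20 were called between AL and Ctrl, 19 between AL and LS and 0 between LS and Ctrl, beside 26.2%, 23.4% and 0.0207% of all genes tested. The strain origin of this stretch in single mice was not analysed here.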

How the data were processed

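Poly(A) RNA of the apical heart of 20 mice was sequenced in 2 runs as stranded, paired-end libraries. According to the methods and the labels, the authors aligned reads to GRCm38 with STAR and quantified genes with Salmon through nf-core/rnaseq, with an Ensembl annotation. The deposited values are estimated counts per gene, of which 14.2% are not whole; they were rounded here. Libraries did not repeat each other (correlations of 0.893 to 0.98). Genes were filtered with filterByExpr (minimum 10), scaled by TMM, and fitted in edgeR 4.0.16 (R 4.3.3) with group and run as terms over all 20 mice; FDRs are Benjamini-Hochberg values over 14477 genes, and SEs were derived from the F statistic. An FDR under 0.05 was a call. The study adjusted runs with ComBat, tried here through sva 3.50.0, and DESeq2 1.42.0, other filters, RLE size factors, single runs, covariates for Xist and for hepatocyte and cardiomyocyte markers, and leaving out libraries were other alternatives. Each mouse is 1 library, so counting error and spread between mice are not separated, and depth limits run 2. Positions and exon lengths come from a GRCm38 annotation, and overlapping genes on the other strand (0610005C13Rik for Bcat2, B3gnt8 for Bckdha) were kept apart by stranded counting, which does not separate same-strand overlaps (Gm43651 with Dbt, Gm43080 with Mccc1). The code was tested on simulated data. The members, the lists of other genes and the tests were chosen with earlier results of these data known. Named genes were all 10 members, the other pathway genes with an FDR under 0.05 in at least 1 comparison, the lowest and highest gene of each comparison list, and the 10 genes most correlated with the members, of which 1 is not reported here; Mcee, Mmaa and Klf15, and the neighbours of Bcat2 and Ppm1k, were named after their values were seen.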

Additional observations from a re-analysis of the deposited data

Results flagged for a closer look

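In 63 sets of values, each of 1 gene in 1 group of 4, 7 or 9 mice, 4 values stood apart from the rest of their group by Dixon's test at the 95% level. Chance alone gives about 1 such value in 20 groups tested. Among the 9 AL mice, AL9 was lowest at 45.4 CPM of Hibch (next 74.4 CPM), at 271 CPM of Acat1 (next 416 CPM) and at 212 CPM of Dld (next 376 CPM). AL8 was highest at 36.7 CPM of Mmab (next 26.6 CPM). Both mice were sequenced in run 2.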

How the results depend on the processing

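No called value changed sign, while Bckdhb, Bckdk and Ppm1k, near 0 and not called against Ctrl, changed sign under some settings. Under the alternatives, 386 of 400 log2 fold changes of the 10 genes moved by less than the spread between mice, as did 600 of 600 when 1 mouse was left out. Leaving out 1 mouse gave 5 to 7 of the 10 genes called in AL against Ctrl, 5 to 9 in AL against LS and 0 in LS against Ctrl, and 9 to 13, 9 to 14 and 0 of the 30 other pathway genes. The medians then ran from -0.38 to -0.23, from -0.38 to -0.31 and from -0.03 to 0.06. Against Ctrl the main counts, 7 of the 10 and 9 of the 30, became 2 and 2 with ComBat-seq, 2 and 3 without the albumin-rich libraries, and 0 and 0 in run 2 alone, an alternative chosen after seeing the data. The cardiomyocyte covariate gave 3 of the 10, with a median of -0.17. Against LS the main counts, 7 and 11, became 1 and 1 with ComBat-seq, 2 and 5 without the albumin-rich libraries, and 0 and 1 with the cardiomyocyte covariate, with a median of -0.08. Between LS and Ctrl, DESeq2 and a fit of the compared groups alone each called 1 of the 10. The cause was not tested, except that run 2 alone and the albumin setting use fewer mice. Replicate numbers did not pair the mice (15 pairs, correlations -0.228 to 0.293, 4 of them over 0.1). With the replicate block, 4 of the 10 were called against Ctrl, and it changed no other count by over 1.5 times. Shares of all genes called are not given here for leave-one-out fits, the replicate block, run 2 alone, DESeq2 or the compared-groups fit. Their counts alone do not show whether a change concerns these genes or all genes. Depth in run 2, 7867642 to 11794615 counts, limits its precision.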
